A study of Mus musculus with 12 samples.

Results

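Granzymes and perforin are the killing proteins that cytotoxic lymphocytes store in secretory granules. The genes described here are Gzma, Gzmb, Gzmc, Gzmd, Gzme, Gzmf, Gzmg, Gzmk, Gzmm and Prf1, taken by symbol from the count table: 10 of its 56941 genes. All 10 passed the filter on low counts, which left 18657 genes for testing. The RNA was of CD8+ T cells taken from tumours of Panc02, a mouse pancreatic cancer cell line, and the hosts of all groups were wild type C57BL/6J mice. The sort took DAPI-negative (viable) CD45.2+ CD8+ cells and split them by surface asGM1, a glycolipid also known as asialo-GM1. The 4 groups were anti-PD-1 asGM1-positive, anti-PD-1 asGM1-negative, isotype asGM1-positive and isotype asGM1-negative, where anti-PD-1 is an antibody against the inhibitory receptor PD-1 and isotype is its control antibody. Each group had 3 libraries. Whether those came from separate mice was not stated in the labels, so the p-values given here measure spread among these libraries only, part of which may be technical. Dose, timing and mouse age were not given in the labels.

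Perforin makes pores in the membrane of a target cell, and through these the granzymes, which are serine proteases, enter and cleave proteins. Granzyme B (Gzmb) cuts after aspartate and starts caspase-dependent death, while granzymes A (Gzma) and K (Gzmk) are tryptases that cut after arginine or lysine. In the mouse, Gzmb lies in a gene cluster on chromosome 14 with Gzmc, Gzmd, Gzme, Gzmf, Gzmg and Gzmn, a set of closely related granzymes that has expanded in rodents and is known from strongly or repeatedly stimulated T and NK cells. Gzma and Gzmk lie on chromosome 13. Gzmm, a granzyme best known from NK cells and other innate lymphocytes, lies on chromosome 10, as does Prf1, the perforin gene.

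The 5 cluster genes Gzmc to Gzmg had promoters that were 86.05 to 93.98% identical in the 10 pairwise alignments of windows running from 250 bases before to 50 bases after the start site (RefSeq promoter table, build GRCm38.p6). The transcripts were 75.52 to 94.76% identical. The same 60 bases of each promoter are shown because these 5 genes did not move together with treatment. Capitals mark the full cyclic AMP response element TGACGTCA or the 8 bases aligned with it. All windows are on the minus strand, at chr14:56234681-56234740 (Gzmc), chr14:56132621-56132680 (Gzmd), chr14:56120654-56120713 (Gzme), chr14:56211456-56211515 (Gzmf) and chr14:56159623-56159682 (Gzmg).
Gzmc: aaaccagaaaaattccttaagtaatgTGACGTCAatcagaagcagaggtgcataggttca
Gzmd: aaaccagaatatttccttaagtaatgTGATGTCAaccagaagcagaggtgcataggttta
Gzme: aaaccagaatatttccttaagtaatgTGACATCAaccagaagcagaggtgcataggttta
Gzmf: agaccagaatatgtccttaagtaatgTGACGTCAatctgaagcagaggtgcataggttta
Gzmg: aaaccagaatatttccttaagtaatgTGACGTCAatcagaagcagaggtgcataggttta

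The Gzmc, Gzmf and Gzmg windows held TGACGTCA. Counted from 1 at its first base, with the Gzmc base first, Gzmd differed there by C4T and Gzme by G5A. Of 32851 promoters of this length, 1.79% held TGACGTCA on either strand. A match describes the letters and is not a measured binding site.

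The Gzmb promoter is shown because Gzmb had the highest level of the 10 genes and passed the test between populations under isotype. The 250 bases before its start site lie at chr14:56262335-56262584 on the minus strand (GRCm38.p6), and capitals mark the RUNX motif TGTGGT.
Gzmb: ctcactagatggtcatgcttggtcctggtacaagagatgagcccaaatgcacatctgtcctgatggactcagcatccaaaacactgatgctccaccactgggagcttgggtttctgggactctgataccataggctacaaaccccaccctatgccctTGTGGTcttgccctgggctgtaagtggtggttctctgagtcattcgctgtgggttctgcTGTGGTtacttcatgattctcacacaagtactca

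TGTGGT, searched on both strands, was in the windows of 9 of the 10 genes, all but Gzmk, and in 16.76% of all promoters. Gzmc to Gzmg are among those 9 and have closely alike promoters, so their matches do not count as separate cases beside that share. Gzmb was the only one of the 10 whose window held the AP-1 motif TGANTCA, which 7.808% of all promoters held and which overlaps neither capital run. Gzmb and Gzmm held the STAT motif TTCNNNGAA, present in 8.298% of all promoters. No window of the 10 held the T-box motif AGGTGTGA, present in 1.275% of all promoters.

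Library totals lay between 58148469 and 73206178 counts. Expression is given in CPM, counts scaled to a common library size with TMM factors, and, where genes are compared with each other, in CPM per kb of exon. Cd8a, the sorted marker, lay between 1591 and 2581 CPM, and 8 defining CD8 T cell genes summed to between 8512 and 12221 CPM. Summed NK cell markers (9 genes) lay at 118 to 246 CPM in anti-PD-1 asGM1-positive, 134 to 213 in anti-PD-1 asGM1-negative, 352 to 476 in isotype asGM1-positive and 183 to 257 CPM in isotype asGM1-negative libraries. Of these 9 genes, Ncr1, which encodes the NK receptor NKp46, stayed at or below 1.85 CPM and was at 0 in 2 libraries, and most of the sum was Fcer1g and Klre1, with up to 301 and 173 CPM. Macrophage and monocyte markers (10 genes) summed to 183 to 321, 81.2 to 124, 212 to 298 and 73.7 to 83.3 CPM in the groups in the same order, and plasmacytoid dendritic cell markers (8 genes) to 25.3 to 30.9, 89.8 to 116, 19.1 to 23.0 and 149 to 230 CPM. The replicate 2 libraries under anti-PD-1 stood apart in heat shock genes, which were looked at after their values were seen: Hspa1a was at 146 CPM (asGM1-positive) and 151 CPM (asGM1-negative) in them, against 22.5 to 32.6 CPM in the other 4 anti-PD-1 libraries and 188 to 440 CPM in the isotype libraries.

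Together the 10 genes took 1.04 ± 0.0895% of all counts in anti-PD-1 asGM1-positive libraries, 0.956 ± 0.194% in anti-PD-1 asGM1-negative, 1.38 ± 0.253% in isotype asGM1-positive and 0.929 ± 0.156% in isotype asGM1-negative libraries (SD, n = 3 each). Gzmb ranked between 2 and 10 among all genes of a library by CPM. Per kb of exon it stood highest in every group, at 4072 ± 411, 3055 ± 330, 5676 ± 1009 and 3201 ± 435 CPM per kb in the groups in that order. Gzmm stood lowest in every group, at 0.739 ± 0.141, 1.04 ± 0.450, 0.708 ± 0.230 and 1.63 ± 0.512 CPM per kb, and was covered by 47 to 225 reads per library. Gzmn, the remaining granzyme of the cluster, had 0 counts in all 12 libraries, where 3 counts, the most that a 0 allows with 95% confidence for counting error alone, correspond to 0.0406 to 0.0524 CPM.

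The order of the levels between those ends differed by treatment. In anti-PD-1 asGM1-positive cells the order per kb was Gzmf (1686 ± 319 CPM per kb), Prf1 (657 ± 126), Gzmc (570 ± 205), Gzmd (339 ± 101), Gzme (263 ± 54.5), Gzma (170 ± 86.0), Gzmk (116 ± 25.7) and Gzmg (27.9 ± 9.98), with overlapping ranges for each neighbouring pair from Prf1 to Gzmk. In isotype asGM1-positive cells it was Gzmc (2878 ± 672 CPM per kb), Gzmf (1651 ± 1038), Prf1 (450 ± 126), Gzma (265 ± 96.8), Gzmd (142 ± 66.2), Gzme (66.3 ± 27.6), Gzmg (60.5 ± 31.5) and Gzmk (46.3 ± 13.3), where the ranges of Gzmc and Gzmf, of Prf1, Gzma and Gzmd, and of Gzme, Gzmg and Gzmk overlapped from one to the next. In anti-PD-1 asGM1-negative cells Gzmf, at 2358 ± 911 CPM per kb, overlapped Gzmb and Gzmc (924 ± 385). In isotype asGM1-negative cells Gzmc (2275 ± 482 CPM per kb), Gzmf (1011 ± 417) and Prf1 (399 ± 85.6) followed Gzmb without overlap between neighbours.

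**Figure D1:**
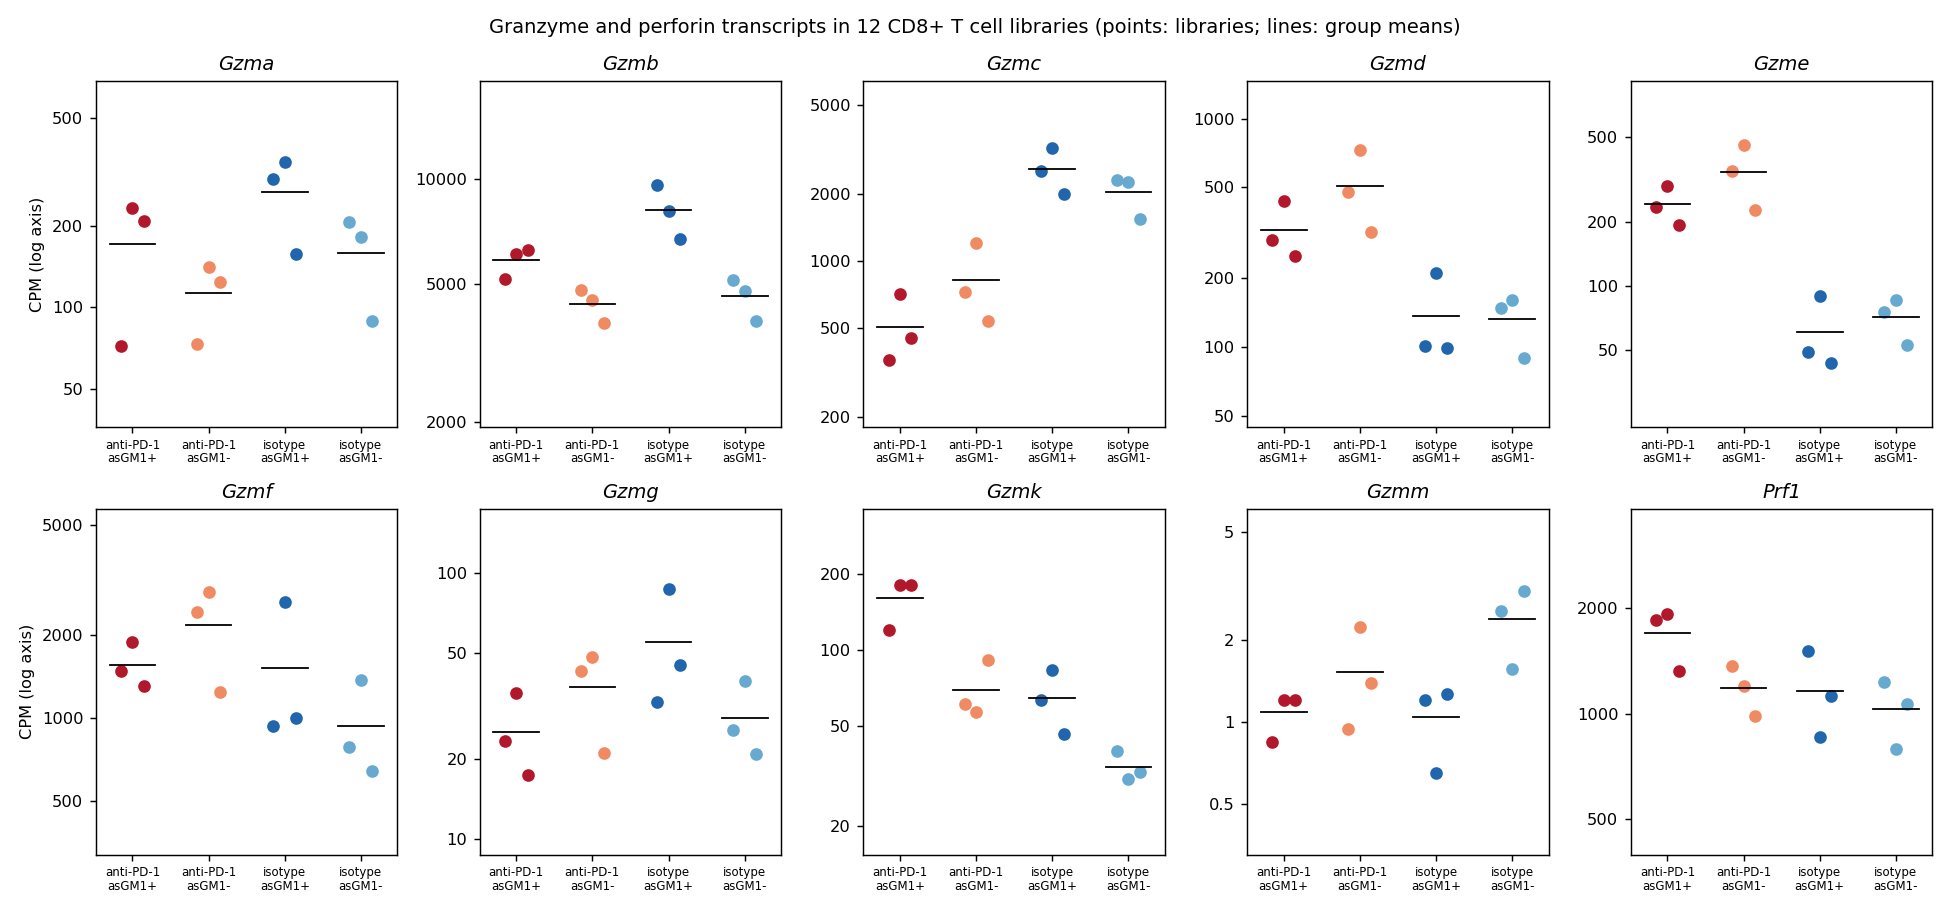
CPM (log axis) of the 10 genes in the 12 libraries, by group; points are libraries and lines are group means of 3 libraries. Gzmc is lower, and Gzmd and Gzme are higher, in all 6 anti-PD-1 libraries than in any isotype library, while the Gzmf groups overlap.

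Treatment with anti-PD-1 in asGM1-positive cells was compared first, within that population. Gzmc fell 5.05-fold, while Gzme rose 3.96-fold and Gzmk 2.51-fold. Of the 10 genes, 2 rose, 1 fell and 7 did not pass an edgeR adjusted p under 0.05. Of all 18657 tested genes, 6.83% passed, 3.78% higher and 3.04% lower. Without both replicate 2 libraries of the anti-PD-1 groups, 2 rose and 1 fell as well, while 616 genes passed in all against 1274 in the main fit. Summed NK markers were lower in the same anti-PD-1 libraries, at 118 to 246 CPM against 352 to 476 CPM under isotype, with 3 of 7 tested genes lower. Summed plasmacytoid dendritic cell markers were at 25.3 to 30.9 CPM under anti-PD-1 against 19.1 to 23.0 CPM under isotype. Ctla4 was the 1 of 7 CD4 and regulatory T cell markers that rose. The defining CD8 T cell genes summed to 8512 to 10090 CPM under anti-PD-1 against 10698 to 12221 CPM under isotype, with 2 of 8 lower. Of 10 macrophage and monocyte markers 2 rose and 1 fell, and 1 of 2 tested neutrophil markers fell. The part of these in the result was not tested. In these bulk libraries fewer cells that express a gene and less RNA per cell cannot be told apart.

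Gzmc had 363, 714 and 452 CPM in anti-PD-1 asGM1-positive libraries, against 2529, 3194 and 1995 CPM in isotype asGM1-positive libraries. Every anti-PD-1 library was below every isotype library. The log2 fold change was -2.34 ± 0.33 SE (edgeR adjusted p = 0.00147), and it passed when any single library was left out.

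Its cluster neighbours Gzmd and Gzme lay on the other side. Gzme had 235, 293 and 194 CPM in anti-PD-1 asGM1-positive libraries, against 48.8, 89.8 and 43.6 CPM in isotype asGM1-positive libraries. The groups did not overlap, and the log2 fold change was 1.99 ± 0.32 SE (edgeR adjusted p = 0.00327). Gzmd had 294, 437 and 251 CPM in anti-PD-1 asGM1-positive libraries, against 101, 210 and 98.9 CPM in isotype asGM1-positive libraries. These groups did not overlap either, with the isotype replicate 2 library closest to the anti-PD-1 range, but Gzmd did not pass (log2 fold change 1.26 ± 0.37 SE, edgeR adjusted p = 0.0653). It passed without that library (adjusted p = 0.0235) and in DESeq2 (adjusted p = 0.0357).

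How reads that match several genes were counted was not stated, which matters for these paralogs. Of the 50-base stretches of its annotated transcripts, 21.86% in Gzmd, 20.65% in Gzme and 19.77% in Gzmg occurred in another gene too, against 7.356% in Gzmf, 4.142% in Gzmc and none in Gzma, Gzmb, Gzmk, Gzmm or Prf1. At 100 bases the share was at most 0.2469%. Gzmd and Gzme summed into 1 feature, a choice made after seeing the data, had a log2 fold change of 1.52 ± 0.35 SE in asGM1-positive cells (edgeR adjusted p = 0.0229). The whole cluster from Gzmc to Gzmg with Gzmn summed did not pass (-0.71 ± 0.32, 95% interval -1.41 to -0.02, edgeR adjusted p = 0.225).

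Gzmf and Gzmg did not pass in edgeR. Gzmf had 1479, 1872 and 1298 CPM in anti-PD-1 asGM1-positive libraries, against 937, 2618 and 997 CPM in isotype asGM1-positive libraries, a difference of 0.03 ± 0.42 SE on the log2 scale with an interval of -0.90 to 0.96. The isotype replicate 2 library was the highest of all 6 for Gzmf. Gzmg, the least abundant of the 5, had 23.3, 35.3 and 17.5 CPM in anti-PD-1 asGM1-positive libraries, against 32.7, 87.3 and 45.0 CPM in isotype asGM1-positive libraries (log2 fold change -1.12 ± 0.41 SE, edgeR adjusted p = 0.139). Its groups overlapped, since anti-PD-1 replicate 2 was above isotype replicate 1, and in DESeq2 it passed (adjusted p = 0.0370).

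Gzmb, the main granzyme by level, had 5170, 6113 and 6258 CPM in anti-PD-1 asGM1-positive libraries, against 9616, 8119 and 6718 CPM in isotype asGM1-positive libraries. All 3 anti-PD-1 values were below all 3 isotype values, the nearest being 6258 and 6718 CPM. The test did not pass (log2 fold change -0.48 ± 0.15 SE, edgeR adjusted p = 0.0757), except without isotype asGM1-positive replicate 3 (adjusted p = 0.0334) or in DESeq2 (adjusted p = 0.0220).

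Gzmk, the tryptase often used as a marker of memory-like effector CD8 T cells, had 120, 182 and 182 CPM in anti-PD-1 asGM1-positive libraries, against 63.2, 83.3 and 46.5 CPM in isotype asGM1-positive libraries. The groups were well separated, and the log2 fold change was 1.32 ± 0.24 SE (edgeR adjusted p = 0.00709). Gzma, the other chromosome 13 tryptase, lay at 72.2 to 233 CPM in anti-PD-1 and 157 to 344 CPM in isotype asGM1-positive libraries, with overlap and a fold change of -0.64 ± 0.45 SE on the log2 scale (edgeR adjusted p = 0.473).

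Prf1 had 1847, 1920 and 1323 CPM in anti-PD-1 asGM1-positive libraries, against 1508, 859 and 1124 CPM in isotype asGM1-positive libraries. Anti-PD-1 replicate 3 fell inside the isotype range. The log2 fold change was 0.54 ± 0.22 SE and did not pass (edgeR adjusted p = 0.183). Gzmm, at 0.85 to 1.21 CPM in anti-PD-1 and 0.65 to 1.27 CPM in isotype asGM1-positive libraries, did not pass, with an interval of -0.80 to 0.93 on the log2 scale.

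In asGM1-negative cells Gzme rose 4.79-fold, Gzmd 3.85-fold and Gzmk 2.02-fold with anti-PD-1, and Gzmc fell 2.46-fold. Thus 3 of the 10 genes rose, 1 fell and 6 did not pass. Of all tested genes, 8.75% passed, 4.21% higher and 4.55% lower. The counts were again 3 and 1 without both anti-PD-1 replicate 2 libraries, while 813 genes passed in all against 1633 in the main fit. In the same libraries, summed plasmacytoid dendritic cell markers were lower, at 89.8 to 116 CPM under anti-PD-1 against 149 to 230 CPM under isotype, with 0 of 8 genes passing. NK markers summed to 134 to 213 CPM under anti-PD-1 against 183 to 257 CPM under isotype, with 1 of 7 tested genes lower. One macrophage and monocyte marker of 10 rose, and 1 of 2 tested neutrophil markers fell. Summed mast cell and basophil genes were higher, at 79.3 to 90.2 CPM under anti-PD-1 against 52.5 to 69.7 CPM under isotype, with 0 of 8 tested genes passing. Most of that sum was Kit, which is not a protease gene, at 63.0 to 82.6 CPM under anti-PD-1 against 48.5 to 68.2 CPM under isotype. The protease genes Cpa3 and Mcpt4 averaged 0.906 and 0.814 CPM under anti-PD-1 and 0.0438 and 0 CPM under isotype. Of 7 CD4 and regulatory T cell markers, 1 rose, Ctla4, which activated CD8 T cells express too. Cd4 stayed at or below 15.1 CPM. Foxp3 had 23.0, 59.3 and 36.0 CPM under anti-PD-1 against 41.9, 28.5 and 16.5 CPM under isotype. The part of these in the result was not tested.

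Gzme had 346, 456 and 226 CPM in anti-PD-1 asGM1-negative libraries, against 75.7, 85.9 and 52.7 CPM in isotype asGM1-negative libraries. Gzmd had 476, 732 and 319 CPM in anti-PD-1 asGM1-negative libraries, against 148, 160 and 89.2 CPM in isotype asGM1-negative libraries. Neither gene's groups overlapped. The log2 fold changes were 2.26 ± 0.32 SE for Gzme (edgeR adjusted p = 0.00168) and 1.94 ± 0.38 SE for Gzmd (edgeR adjusted p = 0.00878), and both passed when any single library was left out. Their sum changed by 2.06 ± 0.36 SE on the log2 scale (edgeR adjusted p = 0.00476).

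Gzmc had 728, 1208 and 541 CPM in anti-PD-1 asGM1-negative libraries, against 2317, 2247 and 1538 CPM in isotype asGM1-negative libraries. The groups did not overlap, and anti-PD-1 replicate 2 came closest to the isotype range. The log2 fold change was -1.30 ± 0.32 SE (edgeR adjusted p = 0.0258). Leaving out replicate 1 (adjusted p = 0.104) or 3 (0.108) of the anti-PD-1 asGM1-negative group ended the call, as did leaving out replicate 1 (0.0923) or 2 (0.0726) of the isotype asGM1-negative group.

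Gzmk had 61.4, 56.7 and 91.3 CPM in anti-PD-1 asGM1-negative libraries, against 40.0, 30.9 and 32.7 CPM in isotype asGM1-negative libraries. No anti-PD-1 value reached down to the isotype range. The log2 fold change was 1.01 ± 0.24 SE (edgeR adjusted p = 0.0237). Leaving out replicate 3 of the anti-PD-1 asGM1-negative group ended the call (adjusted p = 0.108), as did leaving out replicate 2 (0.0811) or 3 (0.0676) of the isotype asGM1-negative group.

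Gzmf had 2414, 2854 and 1234 CPM in anti-PD-1 asGM1-negative libraries, against 786, 1364 and 639 CPM in isotype asGM1-negative libraries, and did not pass (log2 fold change 1.22 ± 0.43 SE, edgeR adjusted p = 0.108). It overlapped through anti-PD-1 replicate 3 and isotype replicate 2, and passed without the isotype asGM1-positive replicate 2 library (adjusted p = 0.0410), which is not in this comparison but shares in the estimate of spread. Gzmb had 4793, 4502 and 3866 CPM in anti-PD-1 asGM1-negative libraries, against 5121, 4765 and 3905 CPM in isotype asGM1-negative libraries. The ranges overlapped over most of their length, with a difference of -0.07 ± 0.15 SE on the log2 scale and an interval of -0.39 to 0.25. Prf1 (0.20 ± 0.22), Gzmg (0.39 ± 0.41), Gzma (-0.50 ± 0.45) and Gzmm (-0.65 ± 0.39) did not pass either.

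**Figure D2:**
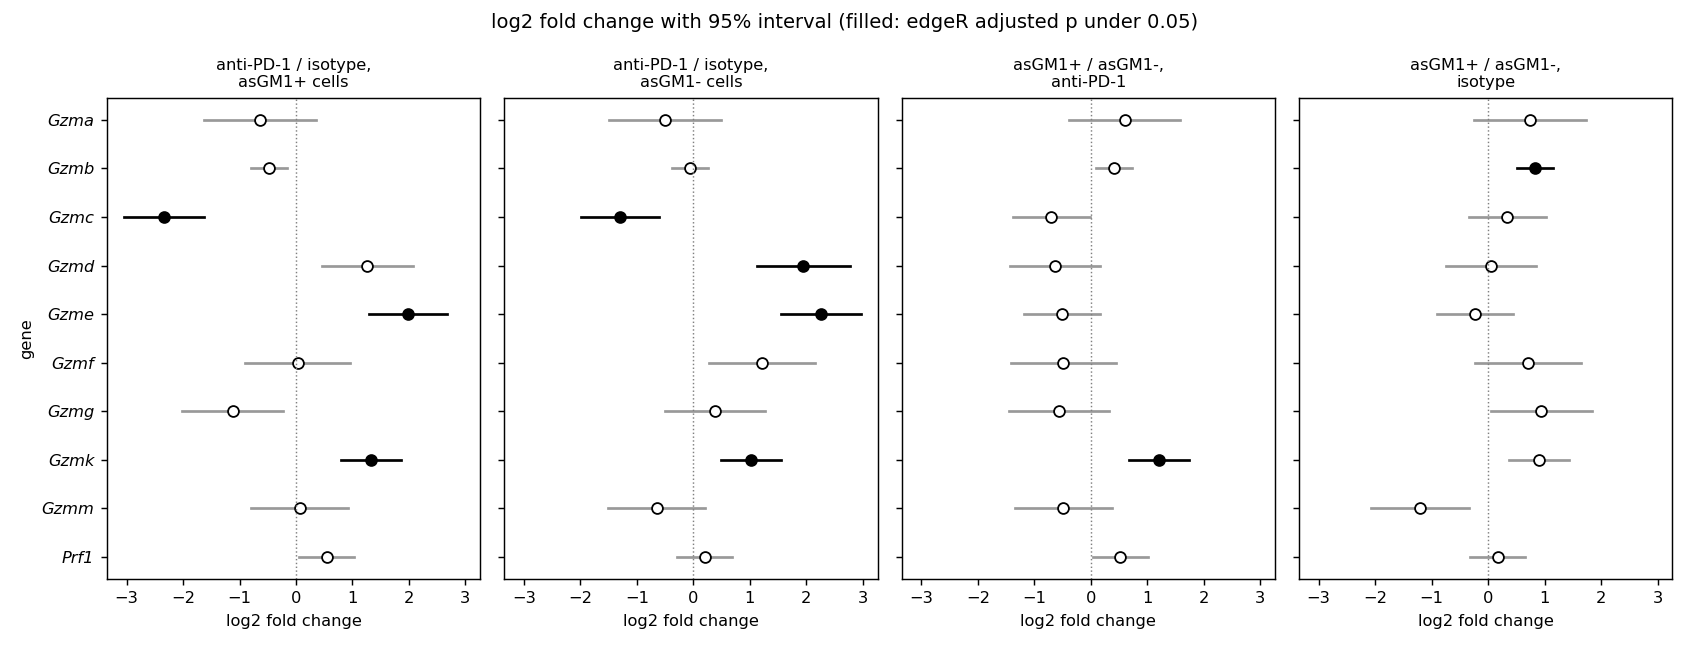
log2 fold change of each gene with its 95% interval in the treatment comparisons (anti-PD-1 minus isotype) and the population comparisons (asGM1-positive minus asGM1-negative); filled points passed an edgeR adjusted p under 0.05. Gzme and Gzmk lie right of 0 and Gzmc left of 0 as filled points in both treatment panels, and Gzmb (isotype) and Gzmk (anti-PD-1) are the filled points of the population panels.

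Averaged over both populations, 4 of the 10 genes changed with anti-PD-1: Gzme by 2.12 ± 0.23 SE on the log2 scale (edgeR adjusted p = 9.21e-05), Gzmd by 1.60 ± 0.26 (0.00159), Gzmk by 1.17 ± 0.17 (0.000779) and Gzmc by -1.82 ± 0.23 (0.00028). Of all tested genes, 18.3% passed in this average, 9.22% higher and 9.10% lower. Each of the 4 passed when any single library was left out. This fit had no pair term and took same-numbered asGM1-positive and asGM1-negative libraries of a treatment as independent. If they are pairs, as taken below, these p-values are too small and the share of genes passing too large. The average was not tested with the pair as a block.

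The make-up of the cluster's transcripts differed between treatments more than its summed level did. Summed over Gzmc to Gzmg, the level was 2886 ± 666 CPM per kb in anti-PD-1 asGM1-positive, 4225 ± 1613 in anti-PD-1 asGM1-negative, 4797 ± 1783 in isotype asGM1-positive and 3534 ± 870 CPM per kb in isotype asGM1-negative libraries, and these ranges overlapped. Gzmc gave 19.5 ± 3.42% of that sum in anti-PD-1 asGM1-positive and 22.0 ± 2.83% in anti-PD-1 asGM1-negative libraries, against 61.9 ± 8.96% in isotype asGM1-positive and 64.9 ± 5.86% in isotype asGM1-negative libraries. Gzmc was thus the leading transcript of the 5 in every isotype library, and Gzmf in every anti-PD-1 library.

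Gzmf gave 58.8 ± 3.01% and 55.6 ± 4.07% of the sum in asGM1-positive and asGM1-negative cells under anti-PD-1, against 32.6 ± 8.37% and 28.1 ± 5.84% under isotype. Gzmd gave 11.6 ± 0.808% and 12.5 ± 1.02% under anti-PD-1, against 2.90 ± 0.306% and 3.85 ± 0.278% under isotype, in the same order of populations. Gzme gave 9.13 ± 0.630% and 8.99 ± 0.601% under anti-PD-1, against 1.37 ± 0.0600% and 2.21 ± 0.0260% under isotype. For each of these shares the 6 anti-PD-1 libraries lay outside the range of the 6 isotype libraries. Gzmg gave 0.765 to 1.41% in all 12 libraries.

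The ratio of Gzmd to Gzmc per kb needs no scaling between libraries, since both genes are read in the same library. It was 0.751, 0.567 and 0.515 in anti-PD-1 asGM1-positive and 0.606, 0.562 and 0.548 in anti-PD-1 asGM1-negative libraries, against 0.0369, 0.0610 and 0.0460 in isotype asGM1-positive and 0.0591, 0.0660 and 0.0537 in isotype asGM1-negative libraries. The lowest anti-PD-1 ratio, 0.515, and the highest isotype ratio, 0.0660, were far apart. The 2 replicate 2 libraries under anti-PD-1 had ratios of 0.567 and 0.562. Their Hspa1a level, 146 and 151 CPM, was above that of the other 4 anti-PD-1 libraries and below that of every isotype library (188 to 440 CPM). Heat shock RNA thus differed between treatments too, and its part in the ratio was not tested. The ratio was not tested further, since it combines genes described after their changes were known.

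**Figure D3:**
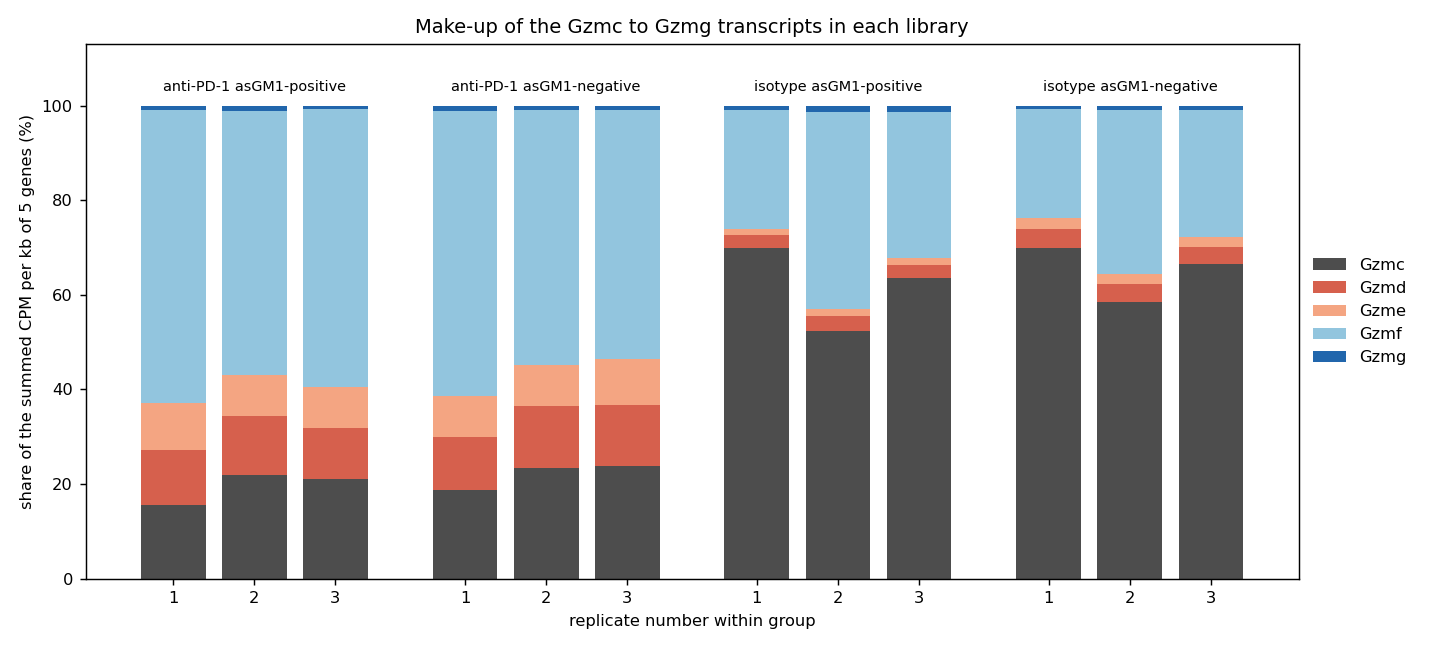
Share of each of the 5 cluster granzymes Gzmc to Gzmg in their summed CPM per kb (%, linear axis), one bar per library and 3 libraries per group. Gzmc gives 15.6 to 23.7% in anti-PD-1 libraries and 52.3 to 70.0% in isotype libraries, and the Gzmd and Gzme segments are wider in every anti-PD-1 library than in any isotype library.

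Between the populations under isotype, Gzmb was 1.77-fold higher in asGM1-positive than in asGM1-negative cells. It was the only one of the 10 genes that passed, with 1.30% of all tested genes passing, 0.364% higher and 0.938% lower. The values were 9616, 8119 and 6718 CPM in isotype asGM1-positive libraries, against 5121, 4765 and 3905 CPM in isotype asGM1-negative libraries. The groups did not overlap, and the log2 fold change was 0.83 ± 0.15 SE (edgeR adjusted p = 0.0189).

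The labels do not say that replicate numbers mark pairs. In these same data, asGM1-positive and asGM1-negative libraries of equal treatment and number deviated together (r = 0.121 to 0.298), so they were taken as pairs. With the pair as a block Gzma and Gzmg passed as well, while the share of all tested genes that passed was 4.05%. Gzma had 298, 344 and 157 CPM in isotype asGM1-positive libraries, against 207, 182 and 88.6 CPM in isotype asGM1-negative libraries. The ranges overlapped, but each pair was higher in the asGM1-positive library, by 1.44 to 1.89 times. Without the block the log2 fold change was 0.74 ± 0.45 SE (edgeR adjusted p = 0.561), and with it 0.76 (edgeR adjusted p = 0.0324). Gzmg, at 32.7, 87.3 and 45.0 CPM in asGM1-positive against 25.8, 39.3 and 20.8 CPM in asGM1-negative isotype libraries, gave 0.94 ± 0.41 SE without the block (edgeR adjusted p = 0.366) and 0.87 with it (edgeR adjusted p = 0.0352).

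Gzmk had 63.2, 83.3 and 46.5 CPM in isotype asGM1-positive libraries, against 40.0, 30.9 and 32.7 CPM in isotype asGM1-negative libraries. These did not overlap, yet the change of 0.90 ± 0.24 SE did not pass (edgeR adjusted p = 0.120). In DESeq2 it did (adjusted p = 0.0109). Gzmm ran the other way, with 1.20, 0.65 and 1.27 CPM in asGM1-positive against 2.56, 1.57 and 3.05 CPM in asGM1-negative isotype libraries, without overlap and without passing (-1.20 ± 0.40 SE, edgeR adjusted p = 0.218). Gzmc, Gzmd, Gzme, Gzmf and Prf1 had overlapping ranges and fold changes from -0.23 to 0.71 on the log2 scale.

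Leaving out replicate 1 (edgeR adjusted p = 0.0644) or 2 (0.0533) of the isotype asGM1-positive group ended the Gzmb call, as did leaving out replicate 2 (0.0584) or 3 (0.0735) of the isotype asGM1-negative group or both anti-PD-1 replicate 2 libraries (0.0553). In a fit of the 6 isotype libraries alone it did not pass either (edgeR adjusted p = 0.0970). Macrophage markers were higher and plasmacytoid dendritic cell markers lower in the same asGM1-positive libraries, at 212 to 298 CPM in asGM1-positive against 73.7 to 83.3 CPM in asGM1-negative libraries and at 19.1 to 23.0 CPM in asGM1-positive against 149 to 230 CPM in asGM1-negative libraries. Summed NK markers were higher too, at 352 to 476 CPM in asGM1-positive against 183 to 257 CPM in asGM1-negative libraries. Of 7 NK markers tested, 0 passed as higher and 1 as lower. Fcer1g averaged 255 CPM in asGM1-positive against 89.3 CPM in asGM1-negative libraries, while Klra7 went the other way (3.65 against 14.2 CPM). Ncr1 was at or below 1.85 CPM in all libraries. Among 7 CD4 and regulatory T cell markers 1 was lower, and Foxp3 lay at 1.91 to 4.32 CPM in asGM1-positive against 16.5 to 41.9 CPM in asGM1-negative libraries. The part of these in the result was not tested.

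Under anti-PD-1, Gzmk was 2.31-fold higher in asGM1-positive than in asGM1-negative cells, and again 1 of the 10 genes passed, with 1.60% of all tested genes passing, 0.949% higher and 0.654% lower. Gzmk had 120, 182 and 182 CPM in anti-PD-1 asGM1-positive libraries, against 61.4, 56.7 and 91.3 CPM in anti-PD-1 asGM1-negative libraries. The groups did not overlap (log2 fold change 1.21 ± 0.24 SE, edgeR adjusted p = 0.0312). Leaving out replicate 2 (adjusted p = 0.106) or 3 (0.118) of the asGM1-positive group ended the call, as did leaving out replicate 1 (0.120) or 2 (0.160) of the asGM1-negative group or both replicate 2 libraries (0.365). Macrophage markers summed to more in these asGM1-positive libraries too, at 183 to 321 CPM against 81.2 to 124 CPM in asGM1-negative libraries. Plasmacytoid dendritic cell markers were lower, at 25.3 to 30.9 CPM in asGM1-positive against 89.8 to 116 CPM in asGM1-negative libraries. Among 7 CD4 and regulatory T cell markers 2 were lower, and Foxp3 lay at 3.54 to 7.13 CPM in asGM1-positive against 23.0 to 59.3 CPM in asGM1-negative libraries. Their part in the result was not tested.

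With the pair as a block, Prf1 and Gzmc passed as well, while 4.98% of all tested genes passed. Prf1 had 1847, 1920 and 1323 CPM in anti-PD-1 asGM1-positive libraries, against 1364, 1198 and 986 CPM in anti-PD-1 asGM1-negative libraries. The ranges touched through asGM1-positive replicate 3 and asGM1-negative replicate 1, while each pair was higher in the asGM1-positive library, by 1.34 to 1.60 times. The log2 fold change was 0.52 ± 0.22 SE without the block (edgeR adjusted p = 0.397) and 0.51 with it (edgeR adjusted p = 0.0065). Gzmc, with 363, 714 and 452 CPM in asGM1-positive against 728, 1208 and 541 CPM in asGM1-negative libraries, gave -0.70 ± 0.31 SE without the block (edgeR adjusted p = 0.427) and -0.67 with it (edgeR adjusted p = 0.0259).

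Gzmb under anti-PD-1 had 5170, 6113 and 6258 CPM in asGM1-positive libraries, against 4793, 4502 and 3866 CPM in asGM1-negative libraries. The groups did not overlap, but the change of 0.41 ± 0.15 SE did not pass (edgeR adjusted p = 0.254). Gzmd, Gzme, Gzmf and Gzmg each had a lower mean in asGM1-positive libraries, with fold changes from -0.64 to -0.48 on the log2 scale, overlapping ranges and no call. Gzma (0.60 ± 0.45) and Gzmm (-0.49 ± 0.39) were not called.

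Averaged over both treatments, 2 of the 10 genes were higher in asGM1-positive cells and none was lower, while 3.63% of all tested genes passed, 1.60% higher and 2.04% lower. They were Gzmb (0.62 ± 0.10 SE, edgeR adjusted p = 0.0066) and Gzmk (1.05 ± 0.17 SE, edgeR adjusted p = 0.00585). Without both anti-PD-1 replicate 2 libraries neither passed (edgeR adjusted p = 0.0536 for Gzmb and 0.0520 for Gzmk). With the pair as a block 8.91% of all tested genes passed, 4.64% higher and 4.27% lower, and 6 of the 10 genes: Gzma (0.62, edgeR adjusted p = 0.00974) and Prf1 (0.34, 0.00588) were also higher, and Gzme (-0.38, 0.0412) and Gzmm (-0.81, 0.0390) were lower.

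Gzmb, Gzmk and Prf1 were higher in the asGM1-positive library of all 6 pairs. The share of all tested genes that ran one way in all 6 pairs was not counted, so this describes these genes only. The median ratio of asGM1-positive to asGM1-negative was 1.66 for Gzmb (1.08 to 1.88), 1.97 for Gzmk (1.42 to 3.21) and 1.28 for Prf1 (1.05 to 1.60). Gzma was higher in 5 of 6 pairs, with a ratio of 0.984 in the replicate 1 pair under anti-PD-1. Gzmm was lower in all 6, with ratios of 0.416 to 0.902 at its low counts.

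**Figure D4:**
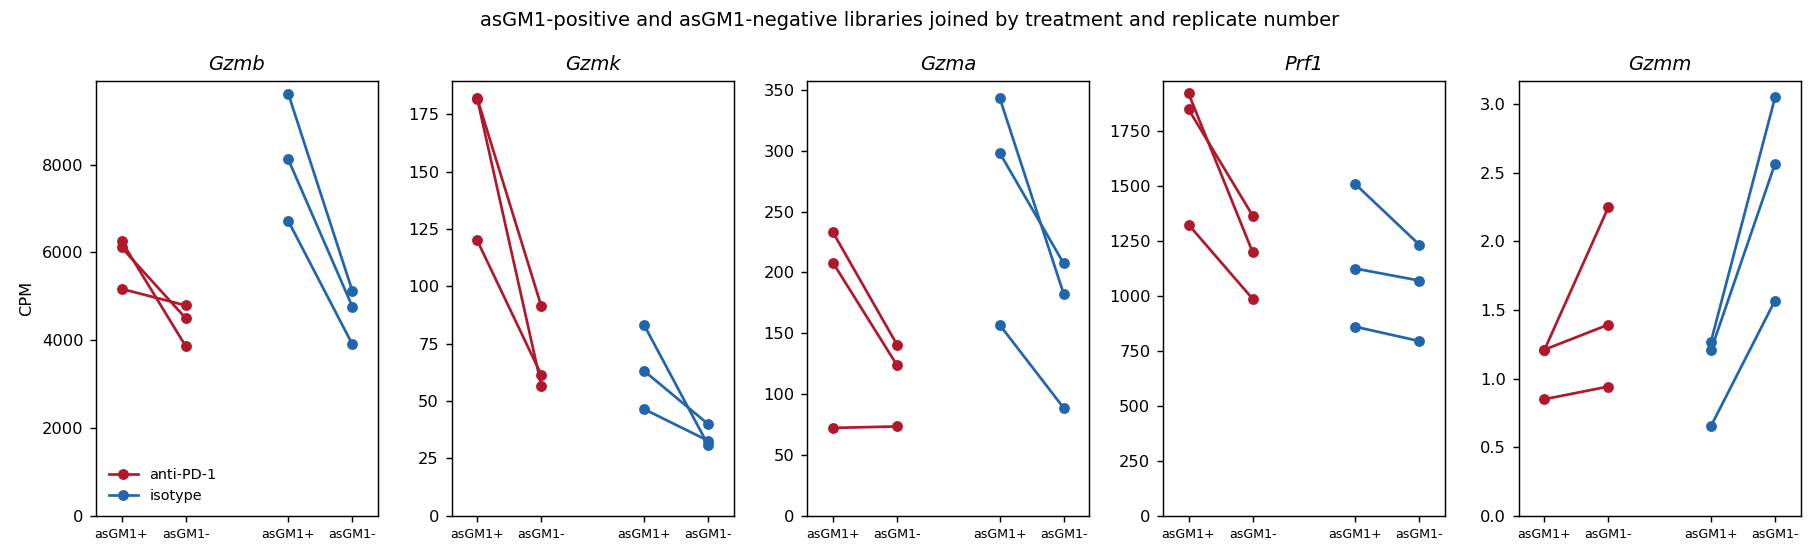
CPM of Gzmb, Gzmk, Gzma, Prf1 and Gzmm in asGM1-positive and asGM1-negative libraries, joined by treatment and replicate number; each line is one of 6 pairs and the axes start at 0. The lines of Gzmb, Gzmk and Prf1 fall towards asGM1-negative in all 6 pairs and those of Gzmm climb.

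Whether the population difference depended on treatment was tested as an interaction. None of the 10 genes and none of all tested genes passed in edgeR (0.00%), while 2 of the 10 and 1341 of all tested genes had an unadjusted p under 0.05. DESeq2 called 136 genes, none of them among the 10. The effect of anti-PD-1 on Gzmd, which passed in asGM1-negative and not in asGM1-positive cells, was not shown to differ between them (difference -0.68 ± 0.52 SE, edgeR adjusted p = 0.883). The comparisons share groups, so their values stand side by side as separate readings.

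Genes around the granule were followed in lists chosen by function. The counts of every list below stand against these shares of all tested genes. With anti-PD-1, 3.78% rose and 3.04% fell in asGM1-positive cells, and 4.21% rose and 4.55% fell in asGM1-negative cells. Between populations, 0.364% were higher and 0.938% lower in asGM1-positive cells under isotype, and 0.949% higher and 0.654% lower under anti-PD-1. The protease inhibitors stood out by size: of 6 granzyme and granule protease inhibitors, 3 rose and 1 fell with anti-PD-1 in asGM1-positive cells (median log2 fold change 1.75, against -0.01 over all tested genes), and 4 rose and 1 fell in asGM1-negative cells (median 1.43, against -0.01). Serpinb9, the mouse inhibitor of granzyme B that protects the killer cell, had 693, 788 and 496 CPM in anti-PD-1 asGM1-positive libraries, against 158, 222 and 211 CPM in isotype asGM1-positive libraries. In asGM1-negative cells it had 727, 621 and 550 CPM under anti-PD-1, against 232, 251 and 301 CPM under isotype. Neither pair of groups overlapped, and the log2 fold changes were 1.74 ± 0.19 SE (edgeR adjusted p = 0.000248) and 1.28 ± 0.19 SE (edgeR adjusted p = 0.00193).

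Its close relatives rose with it. Serpinb9b, an inhibitor of granzyme M in mice, had 348, 283 and 122 CPM in anti-PD-1 asGM1-positive libraries, against 13.1, 12.6 and 18.8 CPM in isotype asGM1-positive libraries (log2 fold change 4.08 ± 0.44 SE, edgeR adjusted p = 0.000226). In asGM1-negative cells the change was 3.19 ± 0.42 SE (edgeR adjusted p = 0.00113). Serpinb6b, another granule protease inhibitor of the family, changed by 2.46 ± 0.16 SE in asGM1-positive (edgeR adjusted p = 1.54e-05) and 1.64 ± 0.15 SE in asGM1-negative cells (edgeR adjusted p = 0.000206). Serpina3g, an inhibitor of cathepsins, fell, with log2 fold changes of -1.62 ± 0.33 SE in asGM1-positive (edgeR adjusted p = 0.0122) and -1.47 ± 0.33 SE in asGM1-negative cells (edgeR adjusted p = 0.0169). In asGM1-positive cells the Serpina3g call ended when replicate 1 of the anti-PD-1 group was left out (edgeR adjusted p = 0.0630). In asGM1-negative cells it ended when replicate 1 (0.0657) or 3 (0.0784) of the anti-PD-1 group or replicate 1 of the isotype group (0.0541) was left out. Between populations under isotype, 1 of the 6 passed, Serpinb6b, which was lower in asGM1-positive cells (-0.91 ± 0.15 SE, edgeR adjusted p = 0.0138). That call ended when replicate 1 of the asGM1-positive (0.0549) or of the asGM1-negative isotype group (0.0623) was left out, and in the 6 isotype libraries alone (0.0721).

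Of 13 tested genes of granule transport and exocytosis, 4 rose with anti-PD-1 in each population and none fell. The median log2 fold change was 0.16 in asGM1-positive and 0.21 in asGM1-negative cells, against -0.01 over all tested genes in each. Sytl2, a synaptotagmin-like protein that tethers granules, had 364, 321 and 266 CPM in anti-PD-1 asGM1-positive libraries, against 170, 183 and 203 CPM in isotype asGM1-positive libraries (0.78 ± 0.16 SE, edgeR adjusted p = 0.0143). That call ended when replicate 1 of the anti-PD-1 group (0.0575), replicate 1 of the isotype group (0.0562) or both anti-PD-1 replicate 2 libraries (0.0557) were left out. In asGM1-negative cells Sytl2 had 341, 251 and 284 CPM under anti-PD-1, against 120, 143 and 175 CPM under isotype (edgeR adjusted p = 0.00337), and passed when any single library was left out. Stx11, a syntaxin needed for granule fusion, rose by 0.85 ± 0.15 SE on the log2 scale in asGM1-positive cells (edgeR adjusted p = 0.0067). It did not pass without both anti-PD-1 replicate 2 libraries (0.0512).

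Of 14 granule cargo and maturation genes, none rose and 3 fell with anti-PD-1 in asGM1-positive cells, and 3 rose and 1 fell in asGM1-negative cells. Ctsw, a cathepsin of cytotoxic lymphocytes, had 1084, 1331 and 1584 CPM in anti-PD-1 asGM1-positive libraries, against 2477, 3080 and 2521 CPM in isotype asGM1-positive libraries. It fell without overlap, by 1.01 ± 0.15 SE on the log2 scale (edgeR adjusted p = 0.0022). Between populations, 1 of the 14 rose and 2 fell in asGM1-positive cells under isotype, and 1 fell under anti-PD-1. Ctsl, the endosomal cathepsin L, had 6.30, 2.30 and 2.35 CPM in isotype asGM1-positive libraries, against 25.2, 16.2 and 17.3 CPM in isotype asGM1-negative libraries (-2.43 ± 0.37 SE, edgeR adjusted p = 0.0088, and 0.0752 in the 6 isotype libraries alone). Plasmacytoid dendritic cell markers were lower in the same asGM1-positive libraries, and their part in the Ctsl result was not tested.

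Of 12 transcription factors known to act on granzyme or perforin genes, 6 rose and 2 fell with anti-PD-1 in asGM1-positive cells, 2 rose and 1 fell in asGM1-negative cells, and none passed between populations under either treatment in edgeR. Zfp683, which encodes Hobit, a factor of tissue-resident lymphocytes, had 2.0, 1.96 and 3.37 CPM in anti-PD-1 asGM1-positive libraries, against 42.0, 59.1 and 52.6 CPM in isotype asGM1-positive libraries. It fell in both populations, with log2 fold changes of -4.39 ± 0.31 SE in asGM1-positive (edgeR adjusted p = 1.95e-05) and -3.23 ± 0.29 SE in asGM1-negative cells (edgeR adjusted p = 0.000194). Its relative Prdm1, which encodes Blimp-1, rose by 1.04 ± 0.19 SE in asGM1-positive cells (edgeR adjusted p = 0.00771).

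Of 9 cytokine receptor genes whose ligands induce granzymes, 2 rose and 1 fell with anti-PD-1 in asGM1-positive cells, and 3 rose in asGM1-negative cells. Il12rb2, the signalling chain of the interleukin-12 receptor, had 427, 345 and 227 CPM in anti-PD-1 asGM1-positive libraries, against 103, 73.3 and 132 CPM in isotype asGM1-positive libraries (1.69 ± 0.33 SE, edgeR adjusted p = 0.0091). Il18rap, an interleukin-18 receptor chain, rose by 0.65 ± 0.09 SE in asGM1-positive and 0.46 ± 0.09 SE in asGM1-negative cells (edgeR adjusted p = 0.00129 and 0.00929).

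Of 6 genes for other routes of killing, 3 fell and none rose with anti-PD-1 in asGM1-positive cells, and 3 fell and 1 rose in asGM1-negative cells. Lta, the cytokine lymphotoxin alpha, had 30.3, 21.8 and 32.3 CPM in anti-PD-1 asGM1-positive libraries, against 122, 92.1 and 125 CPM in isotype asGM1-positive libraries (-2.01 ± 0.16 SE, edgeR adjusted p = 4.12e-05). Tnfsf10, the death ligand TRAIL, fell in both, with log2 fold changes of -1.13 ± 0.13 SE in asGM1-positive (edgeR adjusted p = 0.000314) and -0.76 ± 0.12 SE in asGM1-negative cells (edgeR adjusted p = 0.00373). Fasl, the ligand of the death receptor Fas, averaged 346 CPM under anti-PD-1 and 348 CPM under isotype in asGM1-positive cells, a difference of -0.01 ± 0.10 SE on the log2 scale.

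Across the 12 libraries, the genes whose log2 CPM ran most like each member were ranked by Pearson r among 8943 genes averaging at least 10 CPM. The libraries share treatment and population groups, so these values describe the data and carry no test. Gzmd and Gzme were each other's closest gene (r = 0.98, Spearman rho = 0.97), and Tmem87b was next for both (r = 0.98). Gzmc ran most like Egln3 (r = 0.97), Matk (0.96) and P2ry14 (0.96), with no other granzyme among its top 3. Gzmb ran most like Enpp1 (0.91), Abcb9 (0.90) and Dhrs11 (0.89), and Gzmk most like Rgs8 (0.92), Tinf2 (0.92) and M6pr (0.91). Gzma ran most like Psma1 (0.93), Gzmf most like Haghl (0.90), Prf1 most like Mtmr9 (0.90) and Gzmg most like Adgrg3 (0.85).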

How the data were processed

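Whole-number counts per gene were deposited by the authors in 1 table of 12 libraries, with replicates kept apart. TRIzol extraction and kits of the SMARTer (ultra low input) and TruSeq (mRNA) families are named per the labels' protocols, and HISAT2, StringTie and build mm39 per the submitters' processing notes. Their versions, settings and annotation, and how strand and multi-mapping reads were treated, are not given in the sources used here, so values of near-identical paralogs are uncertain.

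Groups were taken from the labels. Counts were fitted in 1 model of all 12 libraries with edgeR 4.0.16 (quasi-likelihood F test, robust fit, TMM scaling, default filter by group; limma 3.58.1, R 4.3.3), with Benjamini-Hochberg adjustment over all 18657 genes and a threshold of 0.05. CPM are counts scaled to the library's sum over genes past the filter, times the TMM factor. Exon lengths are from GENCODE M21 on GRCm38, another build than mm39. SE values were obtained from each log2 fold change and its F statistic. Floors from 3 counts cover counting error only. The fit was also run on simulated counts, with independent libraries and the same spread for every gene. That run does not cover paired libraries or a library that stands apart. No replicate pair matched within counting noise (chi-square over its degrees of freedom, 45.4 to 126).

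The 10 genes and all lists were chosen with earlier results of these data known. All members are named, with up to 4 genes per list by smallest p among those that passed, and the 3 genes most like each member averaging at least 10 CPM. All 10 members matched the promoter table.

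Libraries of equal treatment and number deviated together (r = 0.121 to 0.298 in 6 pairs), so the numbers were taken to pair populations within a treatment, though the labels do not say so. Equal numbers across treatments did not (r = -0.118 to 0.0497 in 12 pairs). Alternatives were DESeq2 1.42.0, limma voom, other scalings and filters, blocks, and libraries left out.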

Additional observations from a re-analysis of the deposited data

Results flagged for a closer look

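For Gzmc and Gzmg every pair moved one way under isotype and the other way under anti-PD-1. They were picked by this pattern from the genes described here, and the share of all tested genes that show it was not counted. Both belong to the cluster of closely related granzymes, so they are not independent cases. Gzmc was lower in the asGM1-positive library of all 3 anti-PD-1 pairs (ratios 0.498 to 0.836) and higher in that of all 3 isotype pairs (1.09 to 1.42). Gzmg was lower in all 3 anti-PD-1 pairs (0.543 to 0.832) and higher in all 3 isotype pairs (1.27 to 2.22). The population difference under anti-PD-1 minus that under isotype was -1.04 ± 0.44 SE on the log2 scale for Gzmc and -1.50 ± 0.58 SE for Gzmg. Neither interaction passed in edgeR (adjusted p = 0.664 and 0.608), nor with the pair as a block (adjusted p = 0.0682 and 0.0639) or in DESeq2 (adjusted p = 0.373 and 0.243).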

How the results depend on the processing

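Over 1521 recomputed values of the 10 genes, 1451 kept their direction and side of the threshold. Gzmc and Gzmk in asGM1-positive cells, Gzmd in asGM1-negative cells and Gzme in both passed for treatment under every alternative run. Where counts of called genes among the 10 moved, the cause was not tested. DESeq2 called 6 for treatment in asGM1-positive cells, where it called 2264 genes in all against 1274 in edgeR. Between populations under isotype it called 2 of the 10, with 798 genes in all against 243 in edgeR. The replicate block by treatment and number called 3 under anti-PD-1, 3 under isotype and 6 averaged over treatments, and ended none of their calls between populations. In these fits 4.98%, 4.05% and 8.91% of all tested genes passed. A replicate block by number alone called 0 between populations under anti-PD-1 (374 genes in all) and 5 for treatment in asGM1-positive cells (1381 genes in all). The 6 isotype libraries alone called 0, with 80 genes called in all. Dropping both anti-PD-1 replicate 2 libraries called 0 in each population comparison, with 174 genes in all under isotype, 17 under anti-PD-1 and 284 averaged over treatments. Leaving out 1 library gave 0 to 1 under isotype, 0 to 1 under anti-PD-1, 2 to 2 averaged over treatments and 2 to 5 for treatment in asGM1-negative cells.

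The values that turned sign passed in neither fit. Gzmd between populations under isotype became -0.016 with library totals alone, -0.0018 with the replicate block by treatment and number and -0.0031 with the block by number. Without both anti-PD-1 replicate 2 libraries, treatment in asGM1-positive cells became -0.13 for Gzmf and -0.02 for Gzmm. With 1 library left out, log2 values ranged from -0.22 to 0.69 for Gzmf and from -0.18 to 0.23 for Gzmm in that comparison, and from -0.17 to 0.018 for Gzmb with treatment in asGM1-negative cells. Under isotype, Gzmd ranged from -0.42 to 0.23 and Prf1 from -0.057 to 0.34. Averaged over treatments, Gzmc ranged from -0.34 to 0.0047, Gzmf from -0.23 to 0.30 and Gzmg from -0.072 to 0.34. The interaction ranged from -0.42 to 0.26 for Gzma and from -0.50 to 0.12 for Gzme.

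Counts over all genes moved by over 1.5 times in places. DESeq2 called 798 genes under isotype (edgeR 243), 853 under anti-PD-1 (299), 2264 and 2756 for treatment in asGM1-positive and asGM1-negative cells (1274 and 1633) and 1419 for the averaged population difference (678). The replicate block by treatment and number called 755, 929 and 1662 in the population comparisons and 13 in the interaction. Fits of only the 6 libraries compared called 80 under isotype and 694 for treatment in asGM1-positive cells. Without both anti-PD-1 replicate 2 libraries, 17 passed between populations under anti-PD-1, 284 averaged over treatments, 616 and 813 for treatment in asGM1-positive and asGM1-negative cells and 2148 for averaged treatment (3417). Leaving out 1 library gave 86 to 230, 65 to 379, 683 to 1276 and 778 to 1782 genes under isotype, under anti-PD-1 and for treatment in asGM1-positive and asGM1-negative cells. The number of libraries, 3 in each group, limits the precision.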
